A study of Mus musculus with 22 samples.

Results

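The 8 RNAs described here, most of them known as abundant nuclear long noncoding RNAs, were followed through the messenger RNA libraries of the mouse hippocampus contralateral to a kainate injection. They were Malat1, Neat1, Meg3, Miat, Rian, Mirg, Snhg11 and Gm26917, and each was taken as the row of the deposited gene count table whose Ensembl identifier maps to that symbol. All 8 members were found among the 53379 rows of the table, each under a single row, and all 8 passed the filter on low counts with 40714 genes in all. The identifiers are ENSMUSG00000092341.2 (Malat1), ENSMUSG00000092274.2 (Neat1), ENSMUSG00000021268.17 (Meg3), ENSMUSG00000097767.8 (Miat), ENSMUSG00000097451.10 (Rian), ENSMUSG00000097391.8 (Mirg), ENSMUSG00000044349.15 (Snhg11) and ENSMUSG00000097971.3 (Gm26917). Adult male C57/BL6N mice, aged 8 weeks on arrival and acclimatised for 4 weeks, received kainate (70 nl of 20 mM) above the right hippocampus or 0.9% NaCl as sham treatment, and the left hippocampi were taken at 24 h. Only kainate mice that went through generalised convulsive seizures were used. The 8 mice per treatment were combined into 3 samples per treatment (a pool of 4 mice and pools of 2). Nuclei from every pool were then sorted by the neuronal nuclear protein NeuN. This gave 3 kainate and 3 sham libraries of NeuN+ nuclei (neurons), and 3 kainate and 2 sham libraries of NeuN- nuclei (glia, a mixture of cell types), the sham glia being replicates 1 and 3. The p-values therefore rest on the spread between pools, partly shared across genes, and not on that between single mice. The titles of the samples name the left side, whereas the protocol text names the right.

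A NeuN sort keeps the nucleus and loses the cytoplasm, so RNAs that stay at chromatin or in nuclear bodies are measured close to their site of action. Malat1 sits in nuclear speckles, the stores of splicing factors, and Neat1 is the scaffold around which paraspeckles assemble. Miat (Gomafu) forms nuclear granules of its own in neurons and binds splicing factors. Meg3, Rian and Mirg are read from the maternal copy of the imprinted Dlk1-Dio3 cluster and carry microRNAs and small nucleolar RNAs (snoRNAs) in their introns and exons. Snhg11 belongs to the family of snoRNA host genes, and Gm26917 is a predicted RNA beside ribosomal sequence.

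Total counts per library ran from 12058875 to 45428465. Marker genes followed the sort labels: all 7 neuronal markers were higher in NeuN+ libraries and all 5 astrocyte, 5 oligodendrocyte, 4 oligodendrocyte precursor and 5 microglial markers were higher in NeuN- libraries (FDR below 0.25 in edgeR's quasi-likelihood test). The 4 libraries numbered 1 stood apart from the others: their summed mitochondrial transcripts were 3.72 to 16.9 times the mean of the other libraries of the same group. Sham glia replicate 1 and kainate glia replicate 2 were made from 0.05 ng of RNA and the other libraries from 1 ng.

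Not all members were abundant. By mean CPM (counts relative to the library total, scaled by TMM normalization factors) over all 11 libraries, Gm26917 ranked 1, Snhg11 2, Meg3 3 and Malat1 5 of the 40714 genes tested. Neat1 ranked 44, Miat 191, Rian 924 and Mirg 5604. The places depended on the fraction: Neat1 ranked 3303 in neurons and 12 in glia, Meg3 ranked 3 and 51, and Miat ranked 97 and 3529. Malat1 ranked 4 in both and Gm26917 ranked 1 in both. Together the 8 members took 4.75 to 5.97% of all counts in the NeuN+ libraries and 2.09 to 3.46% in the NeuN- libraries. Without Gm26917 these shares were 2.21 to 3.00% and 0.810 to 1.10%.

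Because the members differ in length, levels between them were compared as CPM per kilobase of annotated exon. In sham neurons Gm26917 stood at 9665 ± 1658 CPM per kb (SD, n = 3), Snhg11 at 1518 ± 474, Meg3 at 601 ± 242 and Malat1 at 513 ± 406. Miat followed at 100.2 ± 4.37, Rian at 17.7 ± 5.68, Mirg at 10.2 ± 5.16 and Neat1 at 2.45 ± 2.23. In that order the ranges of Meg3 and Malat1 overlapped, as did those of Rian and Mirg, and no other neighbours did. In sham glia the order was Gm26917 at 3633 ± 389 CPM per kb (n = 2), Malat1 at 796 ± 883, Snhg11 at 153 ± 26.9 and Neat1 at 97.6 ± 6.66. Below these came Meg3 at 43.6 ± 0.995, Miat at 8.15 ± 2.11, Rian at 2.30 ± 0.288 and Mirg at 1.23 ± 0.420. Only Malat1 and Snhg11 overlapped among these neighbours. Per kilobase, Neat1 was thus the lowest of the members in sham neurons and the fourth in sham glia. Its place depends on dividing by all 20771 annotated exon bases, although short and long isoforms share the row. By mean CPM Neat1 stood above Snhg11 in sham glia (2027 against 1307). In sham neurons it was still below Mirg (50.9 against 74.3 CPM). In the kainate libraries Neat1 was again last per kilobase in neurons, at 6.16 ± 4.73 CPM per kb (n = 3). Its range there overlapped that of Mirg, at 11.4 ± 4.31, and by mean CPM it stood above Mirg (128 against 83.0).

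**Figure D1:**
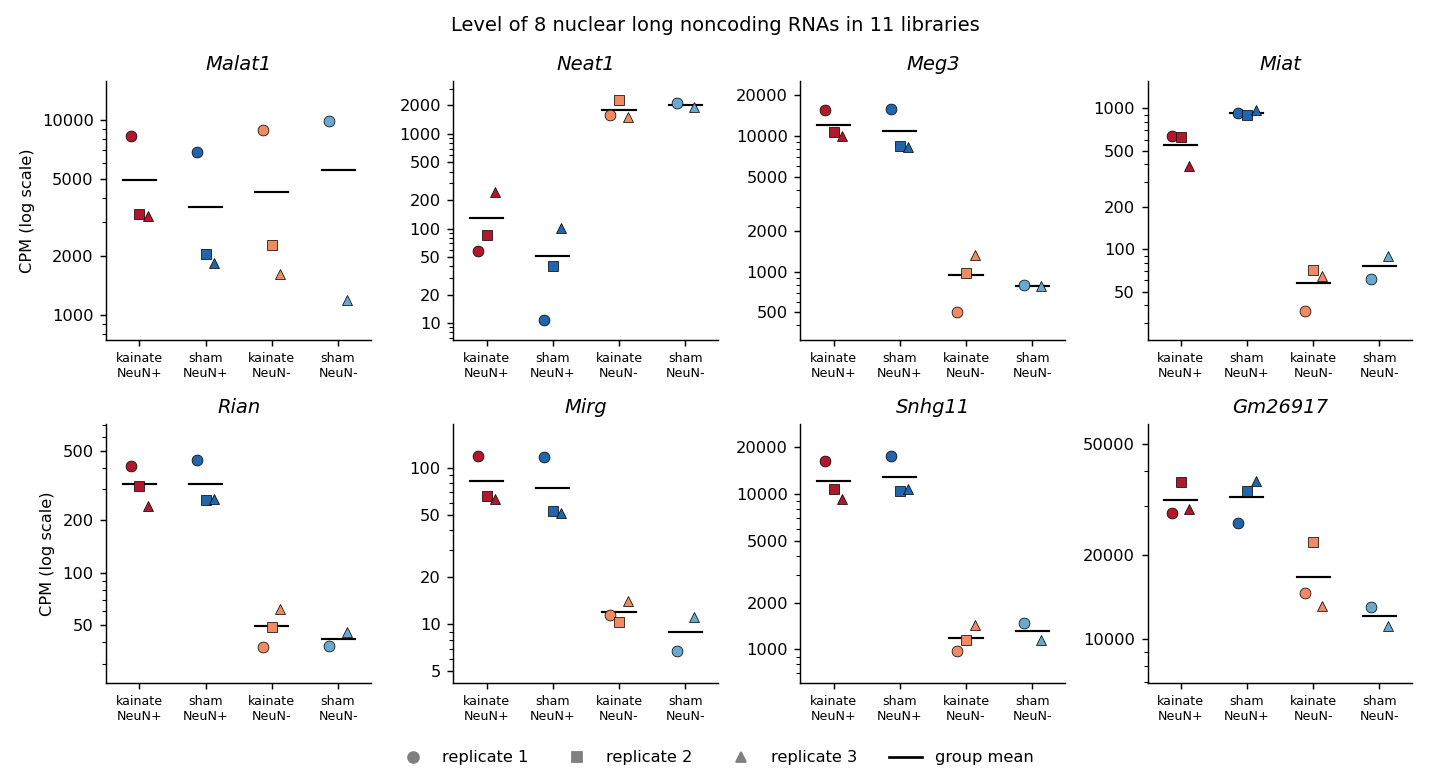
Level of each RNA in every library, in CPM on a log axis; points are libraries (symbol shape gives the replicate number), bars are group means. Neat1 lies between 1507 and 2259 in the NeuN- libraries and at 240.3 or below in the NeuN+ libraries, Meg3, Miat, Rian, Mirg and Snhg11 show the opposite order, and the replicate 1 libraries are the highest for Malat1 in all 4 groups.

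The first comparison was between neurons and glia, averaged over the treatments. Of the 8 members, 7 differed (edgeR quasi-likelihood test, Benjamini-Hochberg FDR below 0.25 over all genes tested): 6 were higher in neurons and 1, Neat1, was higher in glia. Differences between the sorted fractions were common, with 37.2% of all genes tested called. The same 7 members were called when NeuN+ and NeuN- libraries of a pool were paired, a fit that called 59.7% of genes. The median log2 difference was 2.87 over the members and -0.47 over all genes. In bulk libraries fewer cells of a type and less RNA per cell cannot be told apart.

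Neat1 lies at chr19:5824708-5845478 on the minus strand (GRCm38, GENCODE M21), and its annotated transcripts reach 20771 bases, so that short and long isoforms share the row. Its level was 1576, 2259 and 1507 CPM in the kainate glia (replicates 1, 2 and 3) and 2125 and 1929.6 CPM in the sham glia. In neurons it was 58.5, 84.8 and 240.3 CPM after kainate and 10.7, 40.4 and 102 CPM after sham treatment. No NeuN+ library reached the lowest NeuN- library. The log2 difference of neurons from glia was -4.56 ± 0.56 (SE; FDR 6.54e-05), a 23.5-fold higher level in glia. Within single pools the fold ranged from 6.27 to 198, and the pool behind the widest gap was sham replicate 1.

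Malat1, at chr19:5795690-5802672 on the same strand and 22.0 kb from Neat1, was the member whose fractions did not separate. It was measured at 8277, 3299.7 and 3209 CPM in kainate neurons, 6853, 2055 and 1845 CPM in sham neurons, 8885, 2285 and 1622 CPM in kainate glia, and 9919.8 and 1198 CPM in sham glia. The libraries numbered 1 were 2.54 to 8.28 times the mean of the other libraries of their group. The log2 difference of neurons from glia was -0.21 ± 0.62 (FDR 0.825), and in the pools paired it was 0.26 ± 0.27 (FDR 0.477). With all 4 libraries of replicate number 1 left out, the sign turned and the call changed, to a log2 difference of 0.84 ± 0.31 (FDR 0.0211). Leaving out sham glia replicate 1 alone gave 0.92, and kainate glia replicate 1 alone 0.30, neither of them called.

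**Figure D2:**
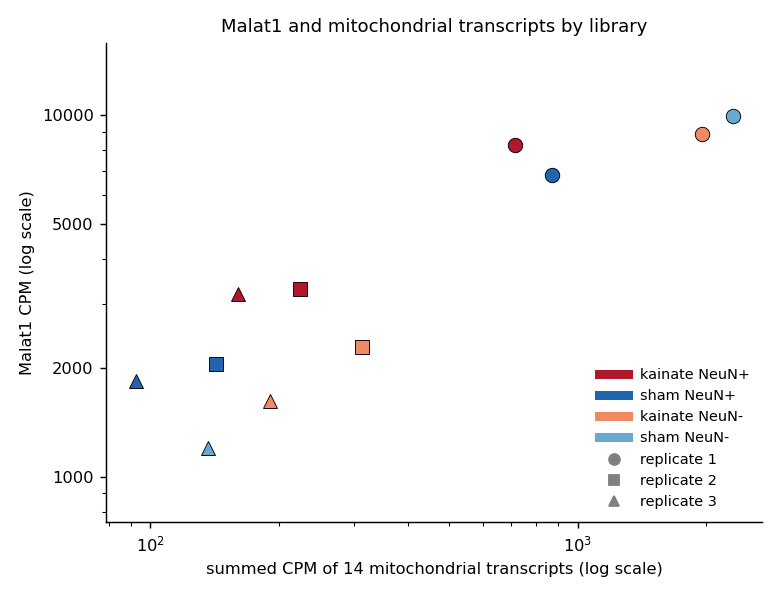
Malat1 level (CPM) against the summed CPM of 14 mitochondrial transcripts in each of the 11 libraries, both on log axes; colours give the group and symbol shapes the replicate number. The 4 libraries numbered 1 lie apart at the upper right, with Malat1 at 6853 CPM or more, and the other 7 libraries lie at 3299.7 CPM or less.

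The mitochondrial transcripts moved with Malat1 across the libraries. Their summed level was 715 CPM in kainate neurons 1, 872 in sham neurons 1, 1954 in kainate glia 1 and 2306 in sham glia 1, against 92.6 to 313 CPM in the other 7 libraries. Other lists were also higher in sum in the replicate 1 libraries: the 18 speckle and splicing genes by 1.57 to 2.80 times, the 15 paraspeckle protein genes by 1.25 to 2.47 times, 10 snoRNA host genes by 2.04 to 2.96 times and 20 other long noncoding RNAs by 1.32 to 2.03 times. Neat1 went the other way in neurons, with its lowest level of each group in the library numbered 1. The part of RNA quality or of the pools in these differences was not tested.

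Meg3, Rian and Mirg lie on chromosome 12 within the Dlk1-Dio3 cluster, all on the plus strand. Meg3 spans chr12:109541001-109571726, Rian chr12:109603940-109661716 and Mirg chr12:109729764-109749460, with 32.2 kb between Meg3 and Rian and 68.0 kb between Rian and Mirg. The RefSeq windows from 250 bases before to 50 after the start (GRCm38.p6, plus strand) are shown to set side by side the starts of RNAs whose levels are compared next. Capitals mark 4 short motifs searched on both strands: the cyclic AMP response element TGACGTCA, the TATA box TATAAA, the CCAAT box and the GC box GGGCGG.
Meg3, chr12:109540746-109541045: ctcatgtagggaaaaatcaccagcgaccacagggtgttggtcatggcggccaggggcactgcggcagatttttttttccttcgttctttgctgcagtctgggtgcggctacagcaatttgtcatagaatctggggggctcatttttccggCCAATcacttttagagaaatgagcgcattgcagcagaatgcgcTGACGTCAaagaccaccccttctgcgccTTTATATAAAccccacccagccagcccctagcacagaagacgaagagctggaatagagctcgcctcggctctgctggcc
Rian, chr12:109603695-109603994: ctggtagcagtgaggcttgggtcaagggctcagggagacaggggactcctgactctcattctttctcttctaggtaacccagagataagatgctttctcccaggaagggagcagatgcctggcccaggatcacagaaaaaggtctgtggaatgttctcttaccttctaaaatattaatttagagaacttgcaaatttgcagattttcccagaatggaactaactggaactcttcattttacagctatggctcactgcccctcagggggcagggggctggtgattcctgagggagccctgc
Mirg, chr12:109734731-109735030: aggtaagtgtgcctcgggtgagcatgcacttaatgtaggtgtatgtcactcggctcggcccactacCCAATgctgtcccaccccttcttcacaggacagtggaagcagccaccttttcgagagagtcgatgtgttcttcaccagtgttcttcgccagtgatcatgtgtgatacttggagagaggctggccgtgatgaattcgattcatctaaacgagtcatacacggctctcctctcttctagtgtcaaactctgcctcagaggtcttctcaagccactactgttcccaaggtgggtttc
The Meg3 window shown held 1 cyclic AMP response element, 1 CCAAT box and 2 overlapping TATA box matches on opposite strands, which run together as capitals. A second RefSeq window of Meg3, at chr12:109545148-109545447, held none of the 4 and 1 CpG dinucleotide. The Rian window held none of the 4 motifs, and the Mirg window held 1 CCAAT box. Among all 32851 windows of this length the cyclic AMP response element occurred in 1.79%, the TATA box in 13.6%, the CCAAT box in 37.4% and the GC box in 35.7%. The Meg3 window shown had 13 CpG dinucleotides, Mirg 10 and Rian 0. The RefSeq start of Mirg lies inside the GENCODE span of the gene. These matches are a description of letters and not of binding.

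Meg3 was measured at 15636, 10704 and 9990 CPM in kainate neurons and at 15915, 8381 and 8292 CPM in sham neurons. In glia it was 504, 978 and 1330 CPM (kainate) and 801 and 776 CPM (sham), so the lowest neuronal library was several times the highest glial library. The log2 difference of neurons from glia was 3.74 ± 0.44 (FDR 5.16e-05), or 13.3-fold, and it ranged from 7.51-fold to 31.0-fold within pools. Meg3 is a maternally expressed RNA known to act on chromatin.

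Rian, the host of a large array of C/D box snoRNAs, stood at 408, 314 and 239 CPM in kainate neurons and 442, 262 and 264 CPM in sham neurons. It stood at 37.5, 48.6 and 61.7 CPM in kainate glia and 38.2 and 45.6 CPM in sham glia. Its log2 difference was 2.82 ± 0.30 (FDR 3.68e-05). The fractions did not overlap.

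Mirg, which hosts the distal microRNA array, was the lowest of the 3 RNAs. It was 119, 66.6 and 63.1 CPM in kainate neurons, 118, 53.3 and 51.8 CPM in sham neurons, 11.5, 10.3 and 14.1 CPM in kainate glia, and 6.77 and 11.1 CPM in sham glia. The log2 difference was 2.92 ± 0.34 (FDR 4.95e-05), again without overlap between the fractions.

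The ratios between these RNAs were followed over the libraries. The log2 ratio of Rian to Mirg CPM had a mean of 2.08 in the neuronal and 2.12 in the glial libraries, with a range of 1.71 to 2.49 over all 11. The log2 ratio of Meg3 to Rian was 5.15 on average in neurons and 4.20 in glia, and that of Meg3 to Mirg was 7.23 and 6.32. The level of Meg3 relative to its neighbours was thus higher in neurons, a difference that was not tested. Over the 11 libraries the centred log2 profiles of Rian and Mirg differed by a root mean square of 0.24, the smallest distance between any pair of members, and those of Meg3 and Rian by 0.51. Snhg11 lay closer to Meg3 than Rian did: Snhg11, on chromosome 2, differed from Rian and from Meg3 by 0.33 each, and the log2 ratio of Meg3 to Snhg11 had an SD of 0.34, against 0.54 for Meg3 to Rian and 0.60 for Meg3 to Mirg. These libraries share the same sort and the same pools, so the distances are a description.

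Other rows of the cluster were examined for the same pattern. Of 6 neighbouring genes in a list (Begain, Wdr25, Dlk1, Rtl1, Dio3 and Dio3os), all 6 were called higher in neurons, against 6836 of the 40714 genes tested: Begain, a gene for a postsynaptic protein, by 2.59 on the log2 scale (FDR 5.57e-05), the retrotransposon-derived Rtl1 by 1.85, Dio3, a thyroid hormone deiodinase, by 2.46, and Dlk1 by 1.26. Between Rian and Mirg, Gm37899 stood at 98.4 to 239 CPM in the neuronal libraries and 16.3 to 34.6 CPM in the glial libraries. B830012L14Rik, further along, stood at 46.9 to 81.3 CPM and 7.59 to 12.9 CPM. Both were named after their values were seen, and not all rows between Dlk1 and Dio3 followed them. Members apart, 10 rows were typed lincRNA, of which 9 held reads and 3, with B830012L14Rik, had a higher mean CPM in neurons. So did 1 of 4 rows typed TEC, Gm37899, and 0 of 3 processed pseudogenes. For example, 4930511J24Rik had a mean of 1.81 CPM in neurons and 3.23 CPM in glia. Of the 74 rows with 20 or more reads, members and microRNA hairpins included, 58 had a higher neuronal mean.

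**Figure D3:**
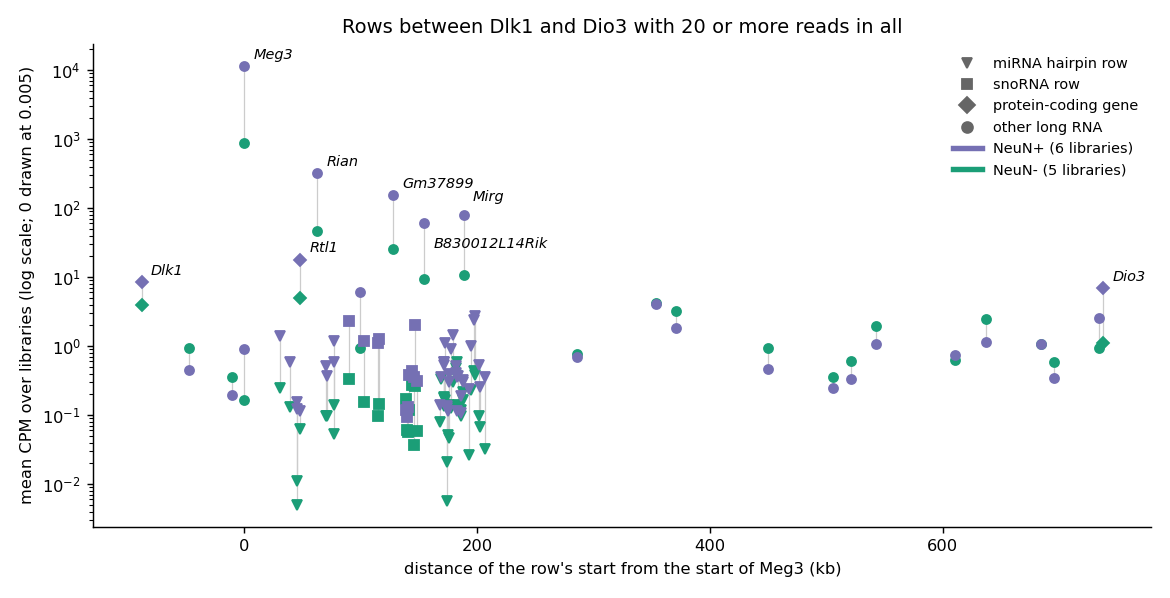
Mean CPM (log axis) of the rows between Dlk1 and Dio3 with 20 or more reads, by distance of their start from the start of Meg3 in kb; purple marks the mean of 6 NeuN+ libraries and green that of 5 NeuN- libraries, shapes give the kind of row, and a mean of 0 is drawn at 0.005. The 74 rows are densest within about 200 kb downstream of Meg3, where the neuronal mean is above the glial mean for Meg3, Rian, Gm37899, B830012L14Rik and Mirg.

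Of 67 microRNA hairpin rows in the cluster, 45 held at least 1 read, with 3565 reads in the neuronal and 880 in the glial libraries in sum. These sums are raw reads of 6 neuronal and 5 glial libraries, not scaled for depth. By mean CPM 41 rows were higher in neurons, and 15 of these did not overlap between the fractions. In libraries primed on poly(A) tails such reads are fragments of longer RNAs that run across a hairpin, not mature microRNAs. The span of Mirg holds 15 hairpin rows, of which 9 overlap its exons, and 5 of those 9 were at 0. By default featureCounts assigns a read that falls in more than 1 annotated gene to none. Among the 13 snoRNA rows inside Rian, 8 overlap its exons and all 8 were at 0. The 4 that held reads were higher in every neuronal library than in any glial library. Outside Rian this held for 2 of the 9 snoRNA rows with reads, and over the whole cluster for 6 of 13. The share over all genes was not counted. The overlaps with other annotated genes covered 5.03% of the exon bases of Mirg, 3.42% of Rian and 8.29% of Meg3.

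The mature microRNAs of the Mirg span with the most reads at their hairpin are shown with the seed (bases 2 to 8) in capitals, as RefSeq gives them for GRCm38.p6. In the same unscaled sums, Mir496a held 405 neuronal and 54 glial reads, Mir154 held 356 and 58, and Mir453 held 170 and 31. The 5-prime product of miR-496a and miR-453 share a seed, as do miR-410-5p, from an exon of Mirg, and miR-494-5p, from the array before Mirg. The neuronal microRNA miR-134-5p, a known regulator of dendritic spines, has its hairpin in a Mirg exon, where the row stood at 0.
miR-496a-5p: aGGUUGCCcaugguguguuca
miR-453: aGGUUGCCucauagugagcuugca
miR-154-5p: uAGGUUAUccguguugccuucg
miR-410-5p: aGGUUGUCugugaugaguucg
miR-494-5p: aGGUUGUCcguguugucuucuc
miR-134-5p: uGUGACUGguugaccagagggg
The 2 shared seeds are GGUUGCC, for miR-496a-5p and miR-453, and GGUUGUC, for miR-410-5p and miR-494-5p. Of the 104 different seeds among the mature microRNAs of the cluster, 9 were shared by more than 1 name.

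Miat lies at chr5:112213228-112229395 on the minus strand. Its longest transcript, of 9163 bases, held the heptamer TACTAAC 6 times, the sequence to which the splicing factor Sf1 and related proteins are known to bind. Of 55450 genes, 3 held 6 or more copies in their longest transcript, and of 1138 genes with a transcript of similar length (0.8 to 1.25 times) 1 did. At least 1 copy was held by 228 of those 1138 genes and by 4.56% of all genes. The heptamer was searched on the transcript strand only. The exon stretch with the densest matches, chr5:112217309-112217460, carried 3 of the 6 and is shown with the heptamer in capitals.
Miat: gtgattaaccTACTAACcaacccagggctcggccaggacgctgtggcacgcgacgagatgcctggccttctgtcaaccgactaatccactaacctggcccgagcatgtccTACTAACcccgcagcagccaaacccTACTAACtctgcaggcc

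Miat was measured at 635, 631 and 393 CPM in kainate neurons and at 919.6, 898 and 977 CPM in sham neurons. In glia it was 36.6, 71.5 and 64.2 CPM (kainate) and 61.9 and 89.7 CPM (sham). Neurons exceeded glia by 3.44 ± 0.33 on the log2 scale (FDR 3.30e-05), or 10.9-fold, and by 6.12-fold to 17.4-fold within pools. Of the exon bases of Miat 30.4% were shared with other annotated genes, among them the antisense gene Gm26953. The libraries do not mark strand, and under the featureCounts default given above reads in the shared bases are missing from the Miat row.

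The genes for 3 proteins known to bind Miat were spread over both fractions. Celf3, a neuronal splicing regulator, was higher in neurons by 2.80 on the log2 scale (FDR 7.35e-05). Qk, the quaking gene of glial RNA processing, was lower in neurons, at a log2 difference of -2.92 (FDR 0.000139). Sf1 had a log2 difference of 0.05 (FDR 0.911).

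Snhg11 (chr2:158375638-158386145, plus strand) is typed as protein-coding in GENCODE M21 and as a long noncoding RNA in RefSeq. It was measured at 16277, 10851 and 9328 CPM in kainate neurons and at 17592, 10470.4 and 10739 CPM in sham neurons. It was 976, 1145 and 1443 CPM in kainate glia and 1469.5 and 1145 CPM in sham glia. Neurons exceeded glia by 3.33 ± 0.40 on the log2 scale (FDR 5.40e-05), or 10.1-fold, and no library overlapped. Other snoRNA host genes were compared in the same way: of 10 tested, 0 were called higher in neurons by edgeR (0 at unadjusted p under 0.05) and 1, Snhg18, was called lower, at a log2 difference of -1.08. Snhg1 stood at 0.72 (FDR 0.382). Under the block by pool 5 of the 10 were called higher and 1 lower, where 59.7% of all genes were called.

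Gm26917 lies at chr17:39843013-39846341 on the plus strand, 11 bases before CT010467.1, a row annotated as ribosomal RNA. Its transcript is 69.1% G and C, the highest share among the members, and its longest run of A is 4 bases, as for Miat, against 16 in Meg3 and 12 in Malat1. It was measured at 28274, 36536 and 29260 CPM in kainate neurons, 26013, 33849 and 36663 CPM in sham neurons, 14649, 22224 and 13160 CPM in kainate glia, and 13011 and 11178 CPM in sham glia. The fractions did not overlap, but the gap was the narrowest of the 7 called members. The log2 difference was 1.16 ± 0.38 (FDR 0.0496), or 2.24-fold. CT010467.1 was also called higher in neurons, by 0.84 on the log2 scale (FDR 0.116). Lars2, another row of the ribosome-linked list, stood at 0.08 (FDR 0.906), and the rows Gm42418 and AY036118 held 0 reads. The Gm26917 count is uncertain because ribosomal sequence occurs in many near-identical copies, and the part of such reads was not tested.

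**Figure D4:**
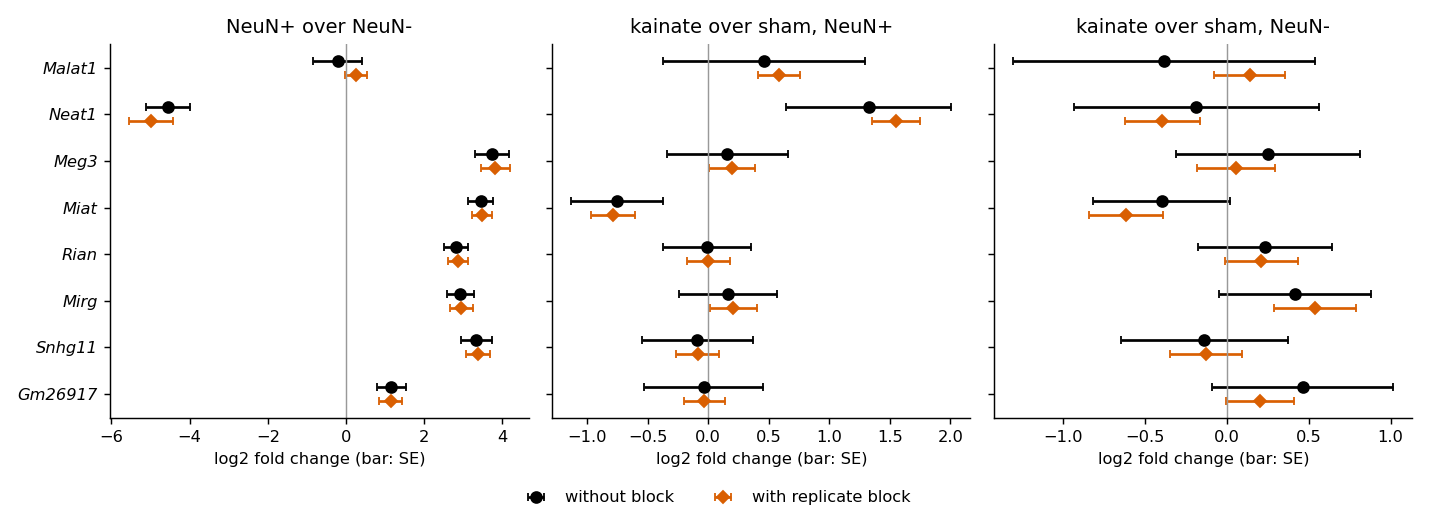
Log2 fold change of each RNA in 3 comparisons with its SE as bars; black points are the fit without a block and orange points the fit that blocks on replicate number (by fraction for kainate against sham, by pool for NeuN+ against NeuN-). In the panel of fractions 7 of the 8 RNAs lie away from 0 between the fractions, and the blocked values that were called for kainate are Neat1, Miat and Malat1 in NeuN+ and Miat in NeuN-.

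The second question was what kainate changed in neurons at 24 h. In the fit without a block, edgeR called 0 of the 8 members, against a background of 0.165% of all genes (67 of 40714). None of the 8 had an unadjusted p under 0.05 (count 0), and DESeq2 also called 0. Libraries with the same replicate number deviated together in kainate and sham, so the number was also fitted as a block. With the block 3 members were called, against 5.09% of all genes: Neat1 and Malat1 were higher and Miat was lower after kainate. The median log2 change over the members was 0.07 without the block, against -0.01 over all genes.

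Neat1 rose in each pair of neuronal libraries under the block. Kainate over sham was 5.45-fold for replicate 1 (58.5 against 10.7 CPM), 2.10-fold for replicate 2 (84.8 against 40.4 CPM) and 2.36-fold for replicate 3 (240.3 against 102 CPM). Without regard to number the groups overlapped, since sham replicate 3 lay above kainate replicates 1 and 2. The log2 change was 1.33 ± 0.68 (adjusted p = 1 in edgeR) without the block and 1.55 ± 0.20 (FDR 1.08e-07) with it. The pairs themselves changed by 2.45, 1.07 and 1.24. The blocked SE was set mostly by the spread of other genes, not by these 3 values. Leaving out all libraries of 1 replicate number at a time gave blocked changes of 1.08, 1.80 and 1.69, each called. Each of these fits kept 2 neuronal pairs and 1 residual degree of freedom in neurons, so the calls lean on the spread of other genes. In the fit without a block, leaving out kainate replicate 3 alone gave 0.49 and sham replicate 3 alone 2.32, neither called. Without the libraries numbered 1, the fit without a block called Neat1, at 1.12 ± 0.39 (FDR 0.227).

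Glial RNA in the neuronal gate was measured beside this result, since Neat1 was much higher in glia. The summed level of 5 oligodendrocyte markers was 185, 366 and 421 CPM in kainate neurons and 229.6, 322 and 439 CPM in sham neurons. The 4 precursor markers summed to 16.5, 40.3 and 64.7 CPM and to 22.7, 50.5 and 60.4 CPM. Neither list was higher in every kainate library than in its sham partner, and both were lowest in replicate 1, as Neat1 was. The 5 astrocyte markers summed to 68.7, 119 and 218 CPM after kainate and 66.6, 66.1 and 124 CPM after sham treatment, and the 5 microglial markers to 67.8, 64.0 and 69.4 CPM and to 62.1, 42.4 and 48.4 CPM. Both of these sums were higher in each kainate library than in its partner. Without Gfap the other 4 astrocyte markers summed to 28.8, 47.7 and 92.1 CPM after kainate and 42.6, 48.0 and 102.7 CPM after sham treatment, lower in each kainate library than in its partner. These 4 did not move alike: with the block Aqp4 was called higher (1.40, FDR 5.73e-06), from 2.62, 3.99 and 5.45 CPM in sham to 5.55, 8.61 and 20.4 CPM in kainate neurons, as was Aldh1l1 (0.73, FDR 0.124), while Gja1 and Slc1a3 were called lower (-0.63 and -0.65). The astrocytic filament gene Gfap had a log2 change of 1.90 in neurons (adjusted p = 0.617 in edgeR) and 1.86 in glia (adjusted p = 1 in edgeR), called under the block in both fractions. The 5 vascular markers summed to 22.7 CPM or less in every neuronal library. Under the block, 3 of 5 astrocyte markers were called higher and 2 lower in kainate neurons, 1 of 5 microglial markers higher and 1 lower, 0 of 5 oligodendrocyte markers higher and 1 lower, and 0 of 4 precursor and 0 of 5 vascular markers either way. The 4 choroid plexus markers summed to 65.7, 81.0 and 39.2 CPM in kainate and 43.8, 43.3 and 35.1 CPM in sham neurons, higher in each kainate library than in its partner, and 1 of them, Kl, was called higher with the block (0.68, FDR 0.118). No marker of these lists was at 0 in any library. The part of these cells in the Neat1 change was not tested.

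Miat fell in each pair under the block. Kainate over sham was 0.691 for replicate 1, 0.703 for replicate 2 and 0.402 for replicate 3, and the groups did not overlap: kainate neurons reached 635 CPM at most and sham neurons 898 CPM at least. The log2 change was -0.75 ± 0.38 (adjusted p = 1 in edgeR) without the block and -0.78 ± 0.18 (FDR 0.00487) with it. The log2 changes of the pairs were -0.53, -0.51 and -1.31, and the blocked SE again came mostly from other genes. Leaving out replicate number 3 moved the blocked value to -0.56 and ended the call (FDR 0.723), while leaving out number 1 or 2 kept it, at -0.99 and -0.92. Among the neuronal markers, Camk2a, a kinase of excitatory neurons, moved by a similar size, at -0.75 (adjusted p = 1 in edgeR) without the block and -0.80 (FDR 0.00370) with it, while Gad1 and Gad2, of inhibitory neurons, were called higher with the block (0.61 and 0.60). The other 4 of the 7 markers were not called, with blocked log2 changes of -0.0642 for Rbfox3, -0.0753 for Snap25, -0.11 for Syt1 and -0.11 for Grin1. The sum of the 7 neuronal markers was 4491, 3464 and 2360 CPM after kainate and 5238, 3386 and 2875 CPM after sham treatment.

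Malat1 was higher in each kainate library than in its partner, by 1.21-fold, 1.61-fold and 1.74-fold. The groups overlapped widely because of the libraries numbered 1. The log2 change was 0.46 ± 0.83 (adjusted p = 1 in edgeR) without the block and 0.59 ± 0.18 (FDR 0.0550) with it. Leaving out number 3 ended the blocked call, at 0.44 (FDR 0.644), and leaving out number 1 or 2 kept it, at 0.66 and 0.54.

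The other 5 members were not called in neurons in either fit. Their blocked log2 changes were 0.20 ± 0.19 for Meg3, 0.00196 ± 0.178 for Rian, 0.21 ± 0.19 for Mirg, -0.09 ± 0.18 for Snhg11 and -0.03 ± 0.17 for Gm26917. In each of the 5, kainate and sham libraries overlapped. Within pairs, the kainate over sham ratio of Meg3 lay between 0.982 and 1.28 and that of Snhg11 between 0.869 and 1.04.

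**Figure D5:**
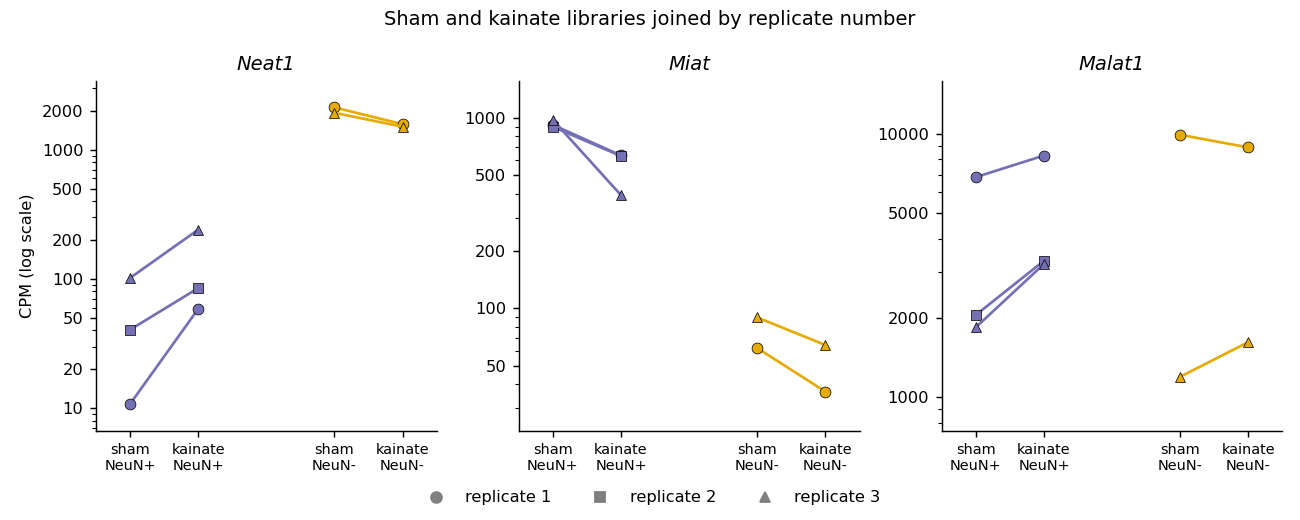
Sham and kainate libraries of the same replicate number joined by lines, in CPM on log axes, for Neat1, Miat and Malat1 in NeuN+ (purple) and NeuN- (yellow). In NeuN+ all 3 lines rise for Neat1 and Malat1 and fall for Miat; in NeuN- both lines fall for Neat1 and Miat.

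In glia the same comparison called 0 of 8 members in edgeR without the block (0 at unadjusted p under 0.05, 0 in DESeq2), with 0.101% of all genes called. With the block 1 member was called, against 5.79% of genes: Miat, whose ratio of kainate over sham was 0.591 for replicate 1 and 0.716 for replicate 3. Its log2 change was -0.40 ± 0.42 without the block and -0.62 ± 0.22 (FDR 0.177) with it. The blocked call was lost without the libraries numbered 1 (-0.47, adjusted p = 1 in edgeR) and without those numbered 3 (-0.75, FDR 0.389). Kainate replicate 2 has no sham partner and adds nothing to a blocked difference. Each of those fits therefore rested on 1 glial pair, with 0 residual degrees of freedom in glia. It took its spread from the neuronal libraries and from other genes, on the assumption that glia vary alike. Pair 1 also sets a kainate library made from 1 ng of RNA against a sham library made from 0.05 ng. The summed oligodendrocyte markers of the glial libraries ran from 4631 to 36814 CPM, with the highest values in the libraries numbered 1, and under the block 3 of 5 oligodendrocyte and 4 of 4 precursor markers were called lower after kainate. Of the 5 astrocyte markers Gja1 (-1.66) and Slc1a3 (-1.21) were called lower and Gfap (1.77) higher, of the 5 microglial markers P2ry12 (-2.10) was called lower, of the 5 vascular markers 0 were called, and of 4 choroid plexus markers Ttr (1.595) and Kl (0.88) were called higher. Of the 7 neuronal markers in glia, 1 was called lower with the block, Camk2a at -0.69 (FDR 0.0978), and 1 higher, Gad1 at 0.87 (FDR 0.0188). The part of these cells in the Miat value was not tested.

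No other member was called in glia with all libraries in the fit. Neat1 had ratios of 0.741 and 0.781 and a blocked log2 change of -0.39 ± 0.23 (FDR 0.649). Mirg had ratios of 1.69 and 1.26 and a blocked change of 0.54 ± 0.25 (FDR 0.425), at only 6.77 to 14.1 CPM. It was called without the libraries numbered 2 (0.53, FDR 0.160). Meg3 went down in pair 1 (0.629) and up in pair 3 (1.71), so its blocked change of 0.06 averaged pairs of opposite sign. Without the libraries numbered 3 it was the 1 member called in glia with the block, at -0.66 (FDR 0.224), on the single pair and with the borrowed spread described for Miat. Malat1 had ratios of 0.896 and 1.35, with log2 changes of -0.38 ± 0.92 without and 0.14 ± 0.22 with the block. For Rian, Snhg11 and Gm26917 the blocked log2 changes were 0.21, -0.13 and 0.20, and none was called.

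Whether kainate acted differently on neurons and glia was tested as the difference of the 2 changes. Without a block edgeR called 0 of 8 members (0 at unadjusted p under 0.05, 0 in DESeq2) and 0.00246% of all genes. With the block within each fraction it called 1 member, Neat1, against 1.94% of genes, with a difference of 1.94 ± 0.31 on the log2 scale (FDR 5.88e-05). Markers of glia, where Neat1 was also high, had called differences (neurons minus glia) of the same sign in this fit. Those called positive were 2 of 5 astrocyte markers (Aqp4 at 1.30 and Gja1 at 1.03) and 1 of 5 oligodendrocyte markers (Mbp at 0.97). So were 2 of 4 precursor markers (Cspg4 at 1.49 and Olig1 at 0.86) and 2 of 5 microglial markers (Csf1r at 1.51 and P2ry12 at 1.47). In these lists 0 were called negative. A positive difference need not be a rise in neurons. With the block Aqp4 was called higher in neurons (1.40), but Gja1 was called lower in neurons (-0.63) and in glia (-1.66). The part of these markers in the Neat1 difference was not tested. Without the libraries numbered 1, where a single glial pair is left, it was 1.43 (FDR 0.257), and with a block by pool the difference was 1.83 with an adjusted p of 1 in edgeR. For the other 7 members the blocked differences lay between -0.33 and 0.45 and none was called.

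Genes whose proteins work with these RNAs were examined as lists. Of 15 paraspeckle protein genes, 3 were called higher in neurons than in glia and 1 lower, against 37.2% of all genes called, with a median log2 difference of 0.16: Cpsf6, a factor of RNA 3-prime end processing, stood at 0.67 (FDR 0.111) and Rbm14 at -0.52 (FDR 0.174). For kainate edgeR called 0 of the 15 in either fraction, with or without the block (0 at unadjusted p under 0.05 without it). Of the 18 speckle and splicing genes, 3 were called higher in neurons and 0 lower; Srsf11 stood at 0.95 (FDR 0.0508). Under the block by pool these counts were 8 higher and 1 lower of 15, and 13 higher and 0 lower of 18, where 59.7% of all genes were called. For kainate edgeR called 0 of the 18 in either fit (0 at unadjusted p under 0.05 without the block).

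Among 20 other long noncoding RNAs in a list, 7 were called higher in neurons and 3 lower, against 37.2% of all genes called, with a median log2 difference of 0.17. Mir124a-1hg, the host of the neuronal microRNA miR-124, was higher by 3.40, Ftx by 2.41 and Dlx6os1, from the interneuron Dlx locus, by 2.59. Sox2ot, which overlaps the progenitor and glial gene Sox2, was lower in neurons (log2 difference -3.03). For kainate edgeR called 0 of the 20 without the block (at unadjusted p under 0.05, 0 in neurons and 2 in glia). Pvt1, beside the Myc gene, ranked first of the list in glia, with a log2 change of 1.58 (adjusted p = 1 in edgeR) and a blocked change of 1.41 (FDR 0.000511). With the block 2 of the 20 were called higher in glia, Pvt1 and Gas5 (1.27), and 2 lower, Pantr1 (-0.95) and Sox2ot (-0.68), against 5.79% of all genes. In neurons 2 were called higher with the block, Mir9-3hg (0.69) and 1700020I14Rik (0.47), and 0 lower, against 5.09% of all genes.

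Genes whose profiles over the 11 libraries lay closest to each member were sought among 11975 genes with a mean of at least 10 CPM, by the root mean square difference of centred log2 CPM. Neat1 was closest to Arhgap45 (0.49), Ncf1 (0.57) and Sec14l5 (0.61). Meg3 was closest to Sv2b (0.26), Coro6 (0.26) and Grin1 (0.26), Miat to Sphkap (0.19), Atp2b3 (0.23) and Gria1 (0.23), and Snhg11 to Rasgef1a (0.16), Celf5 (0.18) and Rgs11 (0.22). Rian was closest to its cluster neighbour B830012L14Rik (0.15), then Add2 (0.17) and Prkag2 (0.18), and Mirg to Rell2 (0.20), Ociad2 (0.24) and B4galnt4 (0.27). Gm26917 was closest to Gse1, Tent4a and Abl2 (each 0.17). Malat1 was closest to Ssr2 (0.21), 1810037I17Rik (0.21) and Hint1 (0.23).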

How the data were processed

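Nuclear messenger RNA was amplified with oligo(dT) priming and sequenced without strand information on 2 kinds of instrument that the sources do not assign to samples, so the part of the sequencing run was not tested. The authors trimmed reads with Trim Galore 0.4.3, aligned them to mm10 with Rsubread and assigned uniquely mapping reads to GENCODE M16 genes with featureCounts, and they deposited raw read counts per gene. These counts were analysed in R 4.3.3 with edgeR 4.0.16: 105 rows without a symbol were left out, filterByExpr kept 40714 genes, libraries were scaled by TMM, and a quasi-likelihood model with 4 group means was fitted to all 11 libraries. Genes were called at a Benjamini-Hochberg FDR below 0.25, the threshold of the study. DESeq2 1.42.0, other filters and scalings, omitted libraries, a low-input term and replicate blocks were alternatives. The models were also run on simulated counts. Their set spread was below that of the unblocked fit here, so that run gives no error rates for these data.

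Replicate numbers were treated as pairs because the deviations of same-numbered libraries from their group means correlated in every pair over 40714 genes: 0.643, 0.161 and 0.491 for kainate and sham neurons, 0.760 and 0.787 for glia, and 0.240 to 0.668 for the neurons and glia of a pool. The block left 3 residual degrees of freedom, against 7 without it. The spread shared over genes weighed as 48.0 degrees of freedom in the blocked fit, against 6.76 without the block. Blocked SEs and FDRs therefore rest mostly on other genes and not on the pairs of the member itself. Kainate glia replicate 2 has no sham partner and sham neurons replicate 2 has no glial partner.

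All 8 members and 3 genes of nearest profile per member were named, with the listed genes of smallest p. Members and lists were chosen with earlier results of these data known. Leaving out all libraries numbered 1, and the blocked fits without each number, were added after seeing the data. Spans, exon overlaps and lengths came from GENCODE M21 on the same genome, not M16, and promoter and microRNA sequences from RefSeq on GRCm38.p6, where 6 members matched a promoter. Total counts of 12058875 to 45428465 per library set the counting precision. Methylation libraries were not analysed here.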

Additional observations from a re-analysis of the deposited data

Results flagged for a closer look

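The kainate effect on Neat1 differed between neurons and glia when the replicate number was blocked within each fraction, by 1.94 ± 0.31 on the log2 scale (edgeR, FDR 5.88e-05). It was not alone in this fit, which called 1.94% of all genes. There 2 of 5 astrocyte, 1 of 5 oligodendrocyte, 2 of 4 precursor and 2 of 5 microglial markers were called with a difference of the same sign. In these lists 0 were called with the other sign, and the part of these markers in the Neat1 difference was not tested. Neat1 was higher after kainate in 3 of 3 neuronal pairs (5.45-fold, 2.10-fold and 2.36-fold) and lower in 2 of 2 glial pairs (0.741 and 0.781). Without a block the difference was 1.51 ± 1.00 (adjusted p = 1 in edgeR), and with a block by pool it was 1.83 with an adjusted p of 1.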

How the results depend on the processing

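No alternative in scaling, filter or tool changed how many members were called in any comparison by over 1.5 times, DESeq2 included. The replicate block did: in neurons 3 members were called with it, 3 without number 1, 3 without number 2 and 1 without number 3, and in glia 1, 0, 2 and 1. For the difference of the kainate effects these counts were 1, 0, 1 and 1. Without the libraries numbered 1 and without a block, 1 member was called in neurons. Between neurons and glia the block by pool changed no call. With all libraries, the blocked fits called 5.09% of all genes in neurons, 5.79% in glia and 1.94% for the difference. The shares of all genes in the fits without a number were not counted, so those counts of members have no background beside them. The pairing rests on the correlations of deviations, since the labels do not say what a number shares. In glia, the blocked fits without number 1 or 3 keep 1 pair and 0 residual degrees of freedom. They take their spread from the neurons and from other genes.

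The following log2 values changed sign, and the cause was not tested. With the replicate block, for kainate in neurons Rian stood at 0.00196, for kainate in glia Malat1 stood at 0.14, for the difference of the kainate effects Meg3 stood at 0.14. With low input as a covariate, for kainate in glia Malat1 stood at 0.17, between neurons and glia Malat1 stood at 0.17. Without both low-input libraries, for kainate in glia Malat1 stood at 2.16 and Snhg11 stood at 0.10, between neurons and glia Malat1 stood at 0.77, for the difference of the kainate effects Malat1 stood at -1.70, Miat stood at 0.0651 and Snhg11 stood at -0.18. Without the libraries numbered 1, for kainate in glia Malat1 stood at 0.72 and Snhg11 stood at 0.19, between neurons and glia Malat1 stood at 0.84, for the difference of the kainate effects Malat1 stood at -0.0575, Mirg stood at 0.0817 and Snhg11 stood at -0.34. With the block by pool, between neurons and glia Malat1 stood at 0.26, for the difference of the kainate effects Snhg11 stood at -0.0751. With the block and without the libraries numbered 1, for kainate in glia Malat1 stood at 0.45 and Snhg11 stood at 0.34, for the difference of the kainate effects Snhg11 stood at -0.50. With the block and without the libraries numbered 2, for kainate in glia Malat1 stood at 0.14, for the difference of the kainate effects Meg3 stood at 0.0666 and Snhg11 stood at -0.0293. With the block and without the libraries numbered 3, for kainate in neurons Rian stood at 0.0339 and Gm26917 stood at 0.0762, for kainate in glia Meg3 stood at -0.66 and Rian stood at -0.0193, for the difference of the kainate effects Meg3 stood at 0.79, Miat stood at 0.19 and Rian stood at 0.0532.

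With a single library left out at a time, no count of called members moved by over 1.5 times, and these values changed sign. For kainate in neurons, Malat1 ranged from -0.14 to 1.34, Meg3 ranged from -0.0702 to 0.54, Rian ranged from -0.22 to 0.29, Mirg ranged from -0.19 to 0.66, Snhg11 ranged from -0.36 to 0.20 and Gm26917 ranged from -0.17 to 0.0679. For kainate in glia, Malat1 ranged from -1.67 to 1.86, Meg3 ranged from -0.24 to 0.45, Rian ranged from -0.14 to 0.36 and Snhg11 ranged from -0.44 to 0.0759. Between neurons and glia, Malat1 ranged from -0.65 to 0.92. For the difference of the kainate effects, Malat1 ranged from -1.40 to 2.10, Meg3 ranged from -0.33 to 0.38, Rian ranged from -0.46 to 0.10, Mirg ranged from -0.65 to 0.24 and Snhg11 ranged from -0.22 to 0.34. In glia Miat kept its sign between -0.68 and -0.12, Mirg between 0.0704 and 0.81 and Gm26917 between 0.20 and 0.60. Neat1 kept its sign but moved, from 0.49 to 2.32 for kainate in neurons and from 0.68 to 2.51 for the difference of the kainate effects, the lowest values without kainate neurons replicate 3 and the highest without sham neurons replicate 3. With 3 pools per group, and 2 for sham glia, changes near the unblocked SE could not be told from 0.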

Other observations

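The other snoRNA host genes were also examined after kainate. In glia, 7 of the 10 tested were called higher with the replicate block and 0 lower, where 5.79% of all genes were called. This rests on 2 pairs, of which pair 1 sets a kainate library of 1 ng against a sham library of 0.05 ng. In the same fit 3 of 5 oligodendrocyte markers, 4 of 4 precursor markers and the astrocyte markers Gja1 and Slc1a3 were called lower, and the part of input or of these cells was not tested. Snhg15 stood at 26.2 ± 12.2 CPM in kainate glia (n = 3) and 8.53 ± 1.76 CPM in sham glia (n = 2), with a blocked log2 change of 1.64 (FDR 0.000229), and Snhg1 changed by 1.26 (FDR 0.00709). Without the block edgeR called 0 of the 10 (1 at unadjusted p under 0.05). In neurons 0 of the 10 were called in either fit. Snhg11 itself had a blocked change of -0.13 ± 0.22 in glia, and its difference from the list was not tested. The summed level of this list in the libraries numbered 1 was 2.04 to 2.96 times the mean of the others of the group.

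Dio3, at the far end of the cluster that holds Meg3, Rian and Mirg, was measured at 8.04, 3.06 and 1.67 CPM in kainate neurons and 15.98, 7.78 and 5.45 CPM in sham neurons. Each kainate library was below its partner, and the blocked log2 change was -1.33 (FDR 0.0335), against -1.20 (adjusted p = 1 in edgeR) without the block. Of the 6 listed neighbours of the cluster, Dio3 was the 1 called lower in neurons with the block, and 0 were called higher. The median blocked change of the 6 was 0.02, and 5.09% of all genes were called in that fit.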
